A study of Mus musculus with 4 samples.

Results

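Junb, Egr2 and Klf6 encode immediate early transcription factors, and their probes were followed through 3 sorted B-lineage populations of the mouse spleen. The probes were found by the NCBI gene number carried in the probe identifier, which gave 1 probe for each of the 3 genes among 46120 probes and 8137 named genes. The cells came from C57BL/6 animals of the genotype written prmd1-gfp in the labels, a green fluorescent reporter of Blimp1, and the animals of all groups carry it. Naive follicular B cells, sorted as B220+ IgD+, fill 1 array, CD138+ plasma cells with high reporter signal (Blimp1-hi) fill 1 array, and CD138+ plasma cells with intermediate signal (Blimp1-int) fill 2 arrays. Cells were taken directly from the animal, sorted by flow cytometry and given no treatment; neither age nor the time spent in sorting is stated in the labels. The plasma cells were sorted from pools of animals, and no label says that the Blimp1-int arrays are of separate pools. The error behind each p-value thus comes from 1 pair of samples, moderated across the tested genes, and may be technical. The source field of the plasma cell arrays names B cells of the follicle, against their titles and sort description, which were followed here.

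Immediate early genes are switched on within minutes of a signal at the cell surface by transcription factors that are already present, without new protein synthesis, and most of their transcripts are short-lived. In B cells the signal can be antigen bound by the receptor, and in cells taken from a tissue it can also be the handling itself. Junb is a basic leucine zipper (bZIP) protein that pairs with Fos and Batf proteins to form AP-1 and can oppose Jun. Egr2 is a zinc finger protein induced by antigen receptor signals and known in lymphocytes for restraining activation. Klf6 is a zinc finger protein of the Krüppel-like family, which binds GC-rich promoter sequence. Blimp1, the product of Prdm1, is the repressor that drives plasma cell differentiation.

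The genes lie on different chromosomes, Junb on chromosome 8 (84976909 to 84978748, GRCm38.p6), Egr2 on chromosome 10 (67534469 to 67542188) and Klf6 on chromosome 13 (5861489 to 5870393). The 150 bases before an annotated start of each are shown because the promoter is where the signal acts on an immediate early gene; the arrays did not measure promoters. They are from RefSeq (GRCm38.p6), 5′ to 3′ on the strand of the gene, with capitals marking matches to the motifs named after them. The stretch for Junb is chr8:84978749-84978898 (minus strand), for Egr2 chr10:67537719-67537868 (plus strand) and for Klf6 chr13:5861339-5861488 (plus strand).
Junb: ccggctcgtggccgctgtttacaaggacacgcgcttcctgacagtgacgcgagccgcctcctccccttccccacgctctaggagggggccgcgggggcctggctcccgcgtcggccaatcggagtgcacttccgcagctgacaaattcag
Egr2: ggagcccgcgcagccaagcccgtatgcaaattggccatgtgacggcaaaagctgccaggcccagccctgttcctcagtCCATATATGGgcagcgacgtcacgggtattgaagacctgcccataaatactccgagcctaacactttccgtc
Klf6: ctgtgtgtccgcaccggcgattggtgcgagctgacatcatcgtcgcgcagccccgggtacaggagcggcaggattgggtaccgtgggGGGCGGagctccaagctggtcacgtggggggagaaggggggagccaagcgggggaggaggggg

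Both strands of the 300-base window around each annotated start, 250 bases before it and 50 after, were searched for the CArG box (the site of serum response factor, which carries MAP kinase signals to immediate early genes), for TGACGTCA (CREB), TGANTCA (AP-1), TATAAA (a form of the TATA box found near many start sites), GGGCGG (SP and KLF proteins) and GCGTGGGCG (EGR proteins). Egr2 has 5 annotated starts, and the start shown was picked among them because its window holds a CArG box. The capitals in its stretch, at offset -72 from the start, are a CArG box that 3 of the 5 windows, which overlap, share, and another window holds a different one. A CArG box was found in 1.63% of 32851 such windows. That share is for single windows not picked for the box, so that nothing is read from the Egr2 box beside it. The capitals in the Klf6 stretch are GGGCGG, which 35.7% of windows hold; 2 of the 5 Egr2 windows, outside the stretch shown, hold it as well. The Junb window held TATAAA at its annotated start, as 13.6% of windows do at some place, and no CArG box. TGACGTCA, TGANTCA and GCGTGGGCG were found in no window of these genes, against 1.79%, 7.81% and 0.612% of all windows; that these letters are missing says nothing about the factors. The share of G and C was 68.0% in the Junb stretch, 57.3% in the picked stretch of Egr2 and 70.0% in that of Klf6, against a median of 54.0% over all windows.

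Levels are the deposited log2 values, and a difference of 1 is 2-fold if the scale is a plain log2. The background level of an array is the mean plus 3 standard deviations of 63 foreign probes (bacterial, plant, spike-in and vector sequences) and lay between 8.64 and 8.67. Between 6645 and 7006 probes exceeded it per array, and the 2661 named genes that did so on any array entered the tests. The reporter probe eGFP lay at 8.29 in naive cells, 11.23 in Blimp1-hi and 10.55 and 10.82 in Blimp1-int. Among the defining genes, Spib, a B cell transcription factor, was at least 19.4-fold lower in Blimp1-hi and at least 19.5-fold lower in Blimp1-int than in naive cells, and Xbp1, a plasma cell transcription factor, was higher by 3.74 and 4.15. Ptprc and Ighd, which encode the B220 and IgD of the naive sort, read 8.71 and less, near or below background. The number of arrays limits the precision: naive and Blimp1-hi have no replicates and borrow their error from the Blimp1-int pair, whose pooled SD over the tested genes was 0.104. Because whole populations were measured, fewer expressing cells and less RNA per cell cannot be told apart.

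Junb was highest in Blimp1-hi plasma cells. Its level was 9.62 in Blimp1-hi, against 9.16 in naive cells and 8.93 and 9.18 in the Blimp1-int replicates (9.05 ± 0.18, SD, n = 2 arrays). The Blimp1-hi array stands above the other 3, while the naive value lies between the Blimp1-int replicates, so that naive and Blimp1-int overlap. All 4 values are above background.

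Egr2 could be measured on 1 array only. It lay at 8.29 in naive cells, 8.73 in Blimp1-hi, and 8.37 and 8.51 in Blimp1-int (8.44 ± 0.10, SD, n = 2 arrays). The Blimp1-hi value exceeded the background level of its array by 0.07, and the highest of the 63 foreign probes on that array read 8.62. The naive and Blimp1-int values are below background, so that their order has no meaning.

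Klf6 was higher in both plasma cell populations than in naive B cells. Its level was 9.31 in naive cells, 10.26 in Blimp1-hi, and 10.07 and 10.40 in Blimp1-int (10.24 ± 0.24, SD, n = 2 arrays). The Blimp1-hi value lies between the Blimp1-int replicates, and the naive array is below all 3 plasma cell arrays. Junb and Klf6 thus follow different orders: Junb is highest in Blimp1-hi, while Klf6 separates plasma cells from naive cells. No order is read for Egr2, which is above background in Blimp1-hi only, and there by 0.07.

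**Figure D1:**
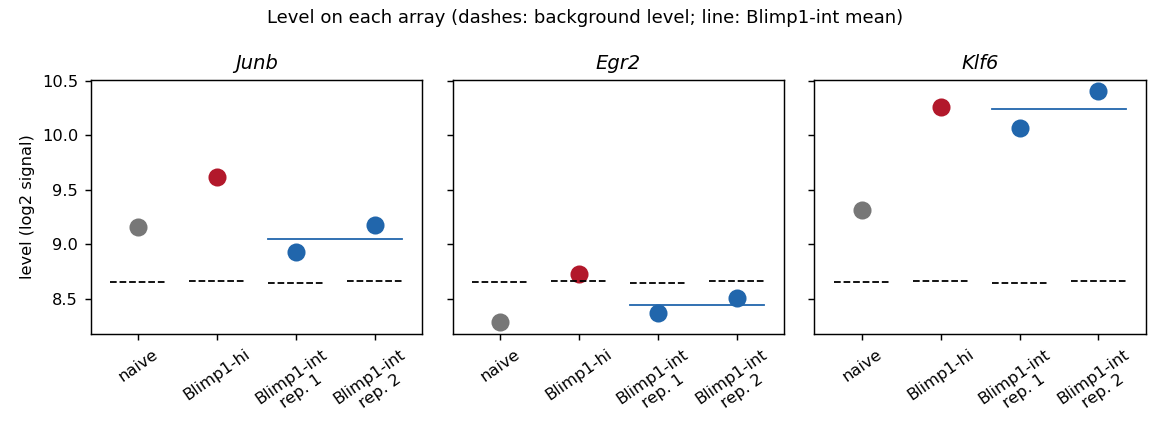
Level of Junb, Egr2 and Klf6 (vertical axis, deposited log2 signal) on each of the 4 arrays (horizontal axis); each point is 1 array, the blue line is the mean of the Blimp1-int replicates and the dashes are the background level of each array. Junb is highest on the Blimp1-hi array and Klf6 is lowest on the naive array. Egr2 lies just above the dashes on the Blimp1-hi array and below them on the other 3, so that no order is read for it. Heights of different genes are not comparable, since each has its own probe.

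The Blimp1-int replicates differed more for Junb and Klf6 than for most genes. Replicate 2 exceeded replicate 1 by 0.25 for Junb, 0.14 for Egr2 and 0.33 for Klf6. Of the 2661 tested genes, 92.4% had a smaller absolute difference between the replicates than Junb, 72.5% a smaller one than Egr2 and 96.8% a smaller one than Klf6. The median absolute difference was 0.08, and 48.2% of the tested genes were higher in replicate 2. The error used by limma gives a gene's own spread 1 degree of freedom, against 13.2 for an SD of 0.089 common to the tested genes. The p-values and intervals of Junb and Klf6 therefore rest on less spread than their own replicates show (SD 0.18 and 0.24).

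In the comparison of Blimp1-hi plasma cells with naive follicular B cells, Klf6 was higher by 0.95 on the log2 scale (SE 0.15, 95% interval 0.63 to 1.27), which is 1.93-fold, and passed limma's test with an adjusted p = 0.000100. Junb was higher by 0.46 (SE 0.14, 1.37-fold, adjusted p = 0.0123, limma). The deposited difference of Egr2 was 0.45 (SE 0.13, adjusted p = 0.00843, limma), but its naive value is below background, and the bound on its rise in Blimp1-hi is at least 1.05-fold. That bound makes no allowance for error. The Blimp1-hi value exceeds background by 0.07, less than the pooled SD of 0.104, so that no rise is read from it. Klf6 reached 1.03 after quantile normalization without the immunoglobulin probes, which passes 2-fold. A gene was called where the adjusted p was under 0.05 and the difference at least 2-fold. None of the 3 genes was called by limma under both criteria, against 4.43% of the tested genes called higher and 7.63% lower. All 3 passed the adjusted p alone. By adjusted p alone 22.0% of the tested genes were higher and 30.5% lower, so that passing it is common in this comparison. Egr2 entered the tests only through its Blimp1-hi value and adds nothing to such a count. The Klf6 difference exceeded those of 95.2% of the tested genes and the Junb difference those of 84.9%.

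Blimp1-int plasma cells were compared with the same naive array, so that both comparisons share it. Klf6 was higher by 0.92 (SE 0.13, 95% interval 0.65 to 1.20, 1.90-fold), with an adjusted p = 2.64e-05 in limma; the replicates lay 0.76 and 1.09 above the naive value. Junb differed by -0.11 (SE 0.12, adjusted p = 0.467, limma), with a 95% interval from -0.36 to 0.15, and the replicates lay on either side of the naive value, at -0.23 and 0.02. Egr2 differed by 0.16 (SE 0.11, adjusted p = 0.236, limma), with every value below background. None of the 3 was called by limma, against 5.90% of the tested genes called higher and 5.71% lower. By adjusted p alone 1, Klf6, was higher, as were 28.2% of the tested genes, with 29.2% lower.

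The direct comparison of the plasma cell populations separated Junb from Klf6. Junb was higher in Blimp1-hi than in Blimp1-int by 0.56 (SE 0.12, 95% interval 0.31 to 0.82), which is 1.48-fold, with an adjusted p = 0.00583 in limma. The Blimp1-hi array exceeded the replicates by 0.69 and 0.44, more than the 0.25 between them. Klf6 differed by 0.02 (SE 0.13, adjusted p = 0.935, limma), with a 95% interval from -0.25 to 0.30. That interval rests on an error moderated across genes, which is smaller than the spread of the Klf6 replicates (SD 0.24). It therefore does not exclude a difference of the size seen for Junb. Egr2 was nominally higher by 0.29 (SE 0.11, adjusted p = 0.0932, limma) and as a bound at least 1.05-fold higher; it passed the adjusted p under 3 of 9 other settings. Both Blimp1-int values of Egr2 are below background, and it was tested only through the array where it is high. Neither that tally nor its p nor the bound is therefore read as a difference. None of the 3 was called by limma, against 0.263% of the tested genes called higher and 0.413% lower. By adjusted p alone 10.2% of the tested genes were lower in Blimp1-hi and 3.08% higher, among them Junb, whose difference exceeded those of 98.8% of the tested genes.

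**Figure D2:**
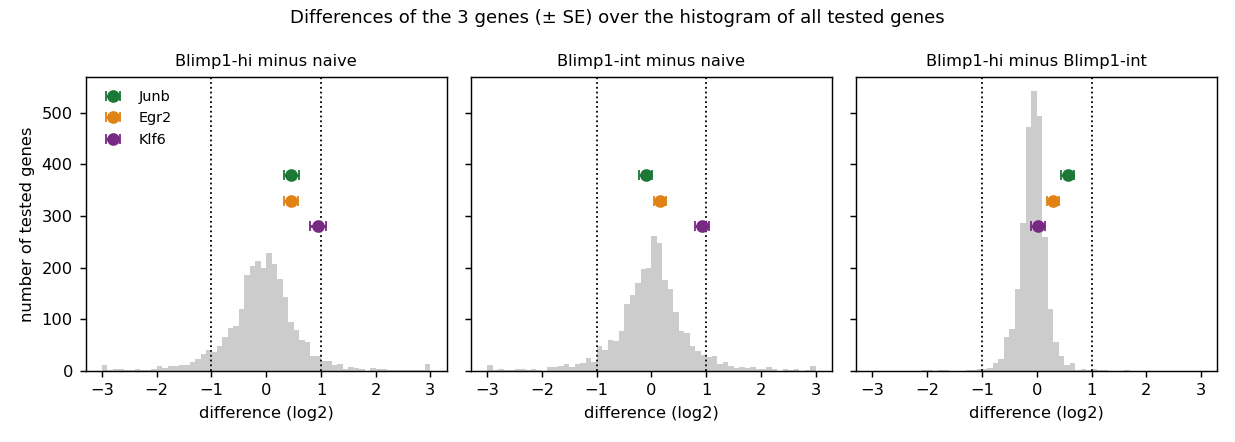
Differences (horizontal axis, log2) of Junb, Egr2 and Klf6 in the 3 comparisons, as points with bars of 1 standard error placed at arbitrary heights, over the histogram of the same difference in all 2661 tested genes (vertical axis, number of genes; values beyond the axis are in the end bins); dotted lines mark 2-fold. Klf6 lies near the upper dotted line in both comparisons with naive cells and at 0.02 between the plasma cell populations, where Junb lies at 0.56 on the right edge of the histogram.

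Of the other AP-1 and bZIP genes, Cebpb and Nfe2l1 were also higher in Blimp1-hi than in Blimp1-int. Of 32 listed genes 13 had a named probe and 6 were tested, Junb included; 7 were below background on all arrays, among them Fosl2, Batf3 and Maf, and genes such as Fos and Jun, with no named probe, were not analysed here. Cebpb, a bZIP factor of stress and cytokine responses, lay at 8.97 in naive cells, 10.30 in Blimp1-hi, and 9.58 and 9.72 in Blimp1-int. Its difference of 1.33 (SE 0.13) between Blimp1-hi and naive cells was called, and it exceeded Blimp1-int by 0.65 (adjusted p = 0.00141, limma), with all 3 plasma cell arrays above the naive one. Nfe2l1, a bZIP factor that induces proteasome genes, lay at 10.04, 10.55, 10.02 and 10.08 in the same order, so that only the Blimp1-hi array stands apart (0.50 above Blimp1-int, adjusted p = 0.00593, limma). By adjusted p alone 3 of the 6 were higher in Blimp1-hi than in Blimp1-int and none lower, against 3.08% and 10.2% of all tested genes. Junb itself is 1 of these 3, and the list was chosen with earlier results of these data known. The median difference of the 6 was 0.31, against -0.06 over all tested genes. That median rests in part on Bach2, which is below background in both plasma cell populations, so that it is not read as a shift of the list. Bach2, a bZIP repressor of B cells that holds back Prdm1 and competes at AP-1 sites, was above background in naive cells only and at least 1.68-fold lower in Blimp1-hi and at least 1.69-fold lower in Blimp1-int than in naive cells.

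Egr2 and Nab1 were the tested genes of the EGR family and its corepressors. Of 7 listed EGR genes and corepressors 5 had a named probe, of which Egr3, the corepressor gene Nab2 and Wt1 were below background on all arrays. The corepressor gene Nab1 was above it on 1 array and in no comparison passed the test (0.10 between Blimp1-hi and naive cells, adjusted p = 0.527, limma).

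Within the KLF and SP family, Klf6 and Klf2 moved in opposite directions. Of 26 listed genes 14 had a named probe and 5 were tested. Klf2, a factor of quiescent and recirculating lymphocytes, fell by 3.21 in Blimp1-hi and fell by 2.79 in Blimp1-int against naive cells, and was the only one of the 5 called in either comparison. Klf3, a transcriptional repressor, lay at 9.55 in naive cells, 9.51 in Blimp1-hi, and 8.90 and 8.94 in Blimp1-int. Blimp1-hi differed from naive cells by -0.04 in Klf3 (adjusted p = 0.826, limma), and both lay above Blimp1-int (0.59 for Blimp1-hi, adjusted p = 0.00201, limma). Klf2 was lower in Blimp1-hi than in Blimp1-int (-0.42, adjusted p = 0.0208, limma). In that comparison 1 of the 5 was higher and 1 lower by adjusted p alone, against 3.08% and 10.2% of all tested genes. Klf7 and Sp1 passed the test in no comparison. By adjusted p alone 1 of the 5 was higher and 1 lower between Blimp1-hi and naive cells, near the 22.0% and 30.5% of all tested genes, with a median difference of -0.003 against -0.05 over all tested genes. That median is the value of Sp1, which is below background on both of these arrays, so that nothing is read from it.

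The other immediate early genes did not share a direction. Of 63 listed genes 19 had a named probe, 11 of these were below background on all arrays, among them Myc, Nr4a1, Nr4a2 and Nr4a3, and 8 were tested. Rhob, an endosomal GTPase induced as an immediate early gene, was the only one called higher against naive cells, with 8.78 in naive cells, 11.03 in Blimp1-hi, and 10.60 and 11.17 in Blimp1-int. Id3, an inhibitor of E proteins, was called lower, at least 2.71-fold in Blimp1-hi and at least 2.72-fold in Blimp1-int. By adjusted p alone 6 of the 8 were lower and 2 higher in Blimp1-hi against naive cells, with a median difference of -0.51; over all tested genes 30.5% were lower and 22.0% higher, with a median of -0.05. Of the 6 lower genes Btg1, Id3 and Bcl3 were above background in naive cells only, through which they entered the tests, so that their direction is fixed by the filter and the count and median are not read as a shift of the list. Between the plasma cell populations 2 of the 8 were higher in Blimp1-hi and none lower by adjusted p alone, against 3.08% and 10.2% of all tested genes. These were Zfp36l1, which encodes a protein that promotes decay of short-lived mRNAs (10.99 in Blimp1-hi against 10.27 and 10.33 in Blimp1-int, with 10.55 in naive cells), and the activation marker Cd69 (9.39 against 8.80 and 8.88, with 9.91 in naive cells). Cd69 was called lower in Blimp1-int than in naive cells (-1.08), and its Blimp1-hi value lies between the other populations.

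**Figure D3:**
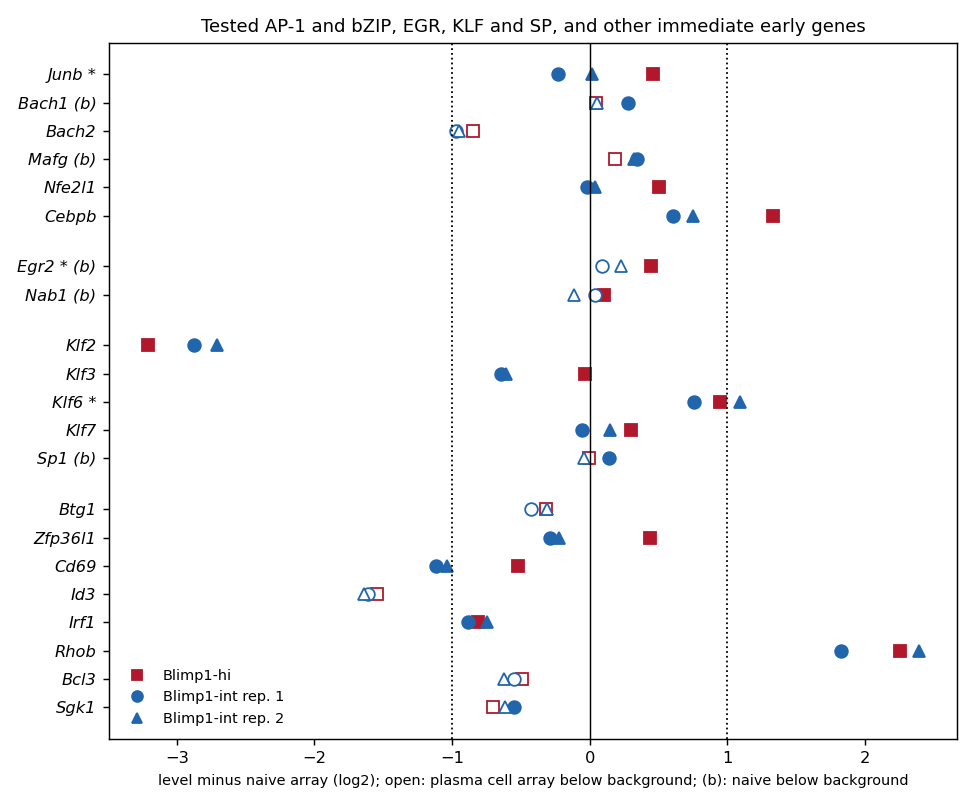
Level on each plasma cell array minus the level on the naive array (horizontal axis, log2) for the tested AP-1 and bZIP, EGR, KLF and SP, and other immediate early genes (rows); each symbol is 1 array, open symbols are below background, and an asterisk marks Junb, Egr2 and Klf6. The Blimp1-hi square lies to the right of both Blimp1-int symbols for Junb, Cebpb, Nfe2l1, Klf3, Zfp36l1 and Cd69, among others. It lies between them for Klf6 and Rhob, among others, and to the left of both for Klf2, Mafg, Sgk1 and Bach1.

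Genes of the MAP kinase, calcineurin and serum response factor pathway, which carry signals to immediate early genes, were lower in Blimp1-hi for 5 of the 9 tested, against naive cells. Of 51 listed genes 27 had a named probe and 9 were tested. The 5 passed by adjusted p alone, as did 30.5% of all tested genes in that direction, and 1 gene, Spred2, was higher, against 22.0%. Some of the 5, Dusp16 among them, were above background in naive cells only and Spred2 in Blimp1-hi only, so that the filter fixes their direction. Ppp3cb, a catalytic subunit of calcineurin, was called lower in Blimp1-hi (-1.21, SE 0.12). Nfatc1, a transcription factor activated by calcineurin, lay at 9.72 in naive cells, 9.05 in Blimp1-hi, and 8.68 and 8.77 in Blimp1-int, differences that passed the adjusted p and not the 2-fold criterion. Between the plasma cell populations none of the 9 was higher and 1, Ppp3cb, was lower in Blimp1-hi by adjusted p alone, against 3.08% and 10.2% of all tested genes.

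Heat shock genes and markers of other cells were read beside these results. Of 9 tested heat shock and stress genes, Hspa5, the chaperone of the endoplasmic reticulum, was the only one called, exceeding naive cells at least 3.57-fold in Blimp1-hi and at least 3.91-fold in Blimp1-int. Against naive cells 4 of the 9 were higher and 2 lower in Blimp1-hi by adjusted p alone, against 22.0% and 30.5% of all tested genes. In Blimp1-int 5 were higher and 2 lower, against 28.2% and 29.2%. The medians were 0.31 and 0.42, against -0.05 and 0.02 over all tested genes. Some of the higher genes, Hspa5 and Hsp90aa1 among them, were below background in naive cells, so that the filter fixes their direction. Hspb1, a small heat shock protein, was above background in Blimp1-hi only (8.85) and as a bound at least 1.15-fold higher there than in Blimp1-int. Hspa8, a constitutive chaperone, went the other way (-0.37 between Blimp1-hi and Blimp1-int, adjusted p = 0.0307, limma). By adjusted p alone these were the 1 higher and the 1 lower of the 9, against 3.08% and 10.2% of all tested genes, and the median difference of the 9 was -0.16, against -0.06. Hspb1 entered the tests only through its Blimp1-hi value, which fixes its direction, so that it adds nothing to that count. Of 10 macrophage and dendritic cell markers with a named probe, 8 were below background on all arrays, among them Csf1r, Cd68, C1qa, C1qb and Lyz2. The exceptions were Vcam1, above it on 1 Blimp1-int array, and Apoe. Apoe lay at 9.22 in naive cells, 9.91 in Blimp1-hi, and 8.76 and 8.97 in Blimp1-int, and was called higher in Blimp1-hi than in Blimp1-int (1.05, SE 0.12). The summed linear signal of the 10 markers was 3483 in naive cells, 3915 in Blimp1-hi, and 3367 and 3715 in Blimp1-int. Since 8 of the 10 are below background, much of each sum is background signal, and the sums do not measure the content of such cells. Apoe, like Junb, was highest on the Blimp1-hi array, and its part in the Junb difference was not tested; Hspb1 has no measured level on the other arrays. All 3 T and NK cell markers and all 7 granulocyte markers with a named probe were below background on all arrays. Of 3 erythroid markers with a named probe, Hba-a1 was above background in naive cells only (8.70). Of 6 stromal and endothelial markers, 5 were below it on all arrays. The exception, Pecam1, was above it on every array, at 9.66 in naive cells, 8.80 in Blimp1-hi, and 8.76 and 8.73 in Blimp1-int.

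For each of the 3 genes the tested genes nearest in pattern were taken by the Euclidean distance between profiles over the 4 arrays, each centred on its own mean, among 2660 genes. With so few arrays many genes lie close, and the distances are a description. Junb was nearest to Nfe2l1 (distance 0.17), Csnk1e (0.17) and Twsg1 (0.18). Csnk1e, which encodes a casein kinase, lay at 8.92 in naive cells, 9.32 in Blimp1-hi, and 8.87 and 8.98 in Blimp1-int. The genes nearest to Egr2 were Txlnb, Retreg1 and Atraid, but 3 of the 4 Egr2 values, and those of Txlnb on the same arrays, are below background, so that no likeness is read from them. Klf6 was nearest to Tmem33 (0.10), Ptpn1 (0.12) and Amigo2 (0.15). Ptpn1, which encodes a tyrosine phosphatase, lay at 8.69 in naive cells, 9.74 in Blimp1-hi, and 9.52 and 9.72 in Blimp1-int. Klf6 and Junb lay far apart (distance 0.86): Junb ranked 1260 from Klf6, and Klf6 ranked 2004 from Junb.

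**Figure D4:**
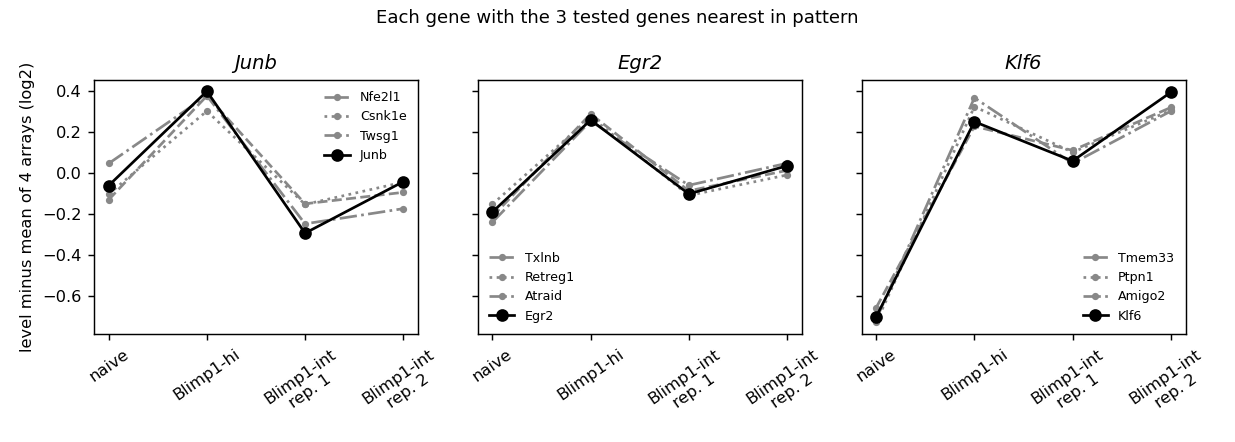
Level minus the mean of the 4 arrays (vertical axis, log2) on each array (horizontal axis) for Junb, Egr2 and Klf6 in black and for the 3 tested genes nearest to each in grey. Junb and its neighbours peak on the Blimp1-hi array, the Egr2 profile is below background on the other 3 arrays, and Klf6 and its neighbours are low on the naive array and higher on the 3 plasma cell arrays.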

How the data were processed

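RNA of sorted cells was hybridised to 4 single-colour Illumina arrays. The values used are on a log2 scale as deposited; the submitters' processing notes name lumi as the authors' software, and its version, the background step and whether the log2 scale is variance-stabilized are not given in the sources used here. If it is, folds of dim genes are understated. A deposited table of raw signals has 8 columns of values whose names match no sample, and none was used.

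Probes were named through the gene number in their identifiers (9832 of 11897 matched RefSeq, GRCm38.p6; 84.3% of 5-digit numbers, against 50.9% after a shift by 7). For each gene the brightest probe above background was used, which for Junb, Egr2 and Klf6 is the only one. The 4 arrays entered 1 linear model of the 3 groups in limma 3.58.1 under R 4.3.3 (two-sided, Benjamini-Hochberg over 2661 genes, 1 residual degree of freedom) and tested on simulated data. The error of each gene was moderated toward a value common to the tested genes (SD 0.089, 13.2 degrees of freedom). A gene below background in the lower group has a bound, written as at least N-fold, which makes no allowance for error. The genes named are the 3 members, up to 4 called genes per direction from each list, or up to 2 uncalled ones, and the 3 nearest in pattern; other names were picked once values were known. The members and lists were chosen with earlier results of these data known.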

Additional observations from a re-analysis of the deposited data

How the results depend on the processing

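Over 9 other settings the Blimp1-hi value of Junb stayed above the naive one (0.46 to 0.51, adjusted p at most 0.0268) and above Blimp1-int (0.56 to 0.63, adjusted p at most 0.0271), and Klf6 passed limma's test against naive cells in Blimp1-hi (0.95 to 1.03) and in Blimp1-int (0.88 to 0.97). Most of these settings change only the filter, the use of probes or the error. They cannot move the difference of a gene with 1 probe, so that only its adjusted p varies. Scaling to the 75th percentile of all probes left the Junb difference from naive cells at 0.458, and only the remaining normalizations moved it. Quantile normalization without the immunoglobulin probes brought Klf6 in Blimp1-hi to 1.03, past 2-fold, and left 133 genes called lower there, against 203. The difference of Egr2 between the plasma cell populations passed the adjusted p with no background filter (0.29, adjusted p = 0.0409), in a fit over all probes (0.29, adjusted p = 0.0255), where most probes are below background, and with scaling to the 75th percentile of the tested genes (0.36, adjusted p = 0.0423), an alternative chosen after seeing the data; over all 9 its adjusted p ran from 0.0255 to 0.135, and both of its Blimp1-int values are below background. Leaving out a Blimp1-int replicate left no residual degree of freedom and so no test: Junb was then 0.44 to 0.69 and Klf6 -0.14 to 0.19 higher in Blimp1-hi than in Blimp1-int, Klf6 exceeded naive cells by 0.76 to 1.09 in Blimp1-int, and the count of genes at least 2-fold higher in Blimp1-hi than in Blimp1-int was 3 without replicate 1 and 9 without replicate 2, against 7. No paired analysis was possible because only Blimp1-int has numbered replicates. Signal over background limits Egr2, which has no measured level in naive or Blimp1-int cells.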
